A study of Mus musculus with 4 samples.

Results

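Accessible chromatin was examined at 9 genes that mark or direct lymphocytes, out of 26180 mouse genes with a curated RefSeq start site, in peak lists from visceral adipose tissue. The rule names genes by role and uses no measured value, but the genes were chosen with earlier results of these data known. The genes are Ptprc, Ikzf1, Cd3e, Cd4, Cd8a, Tbx21, Gata3, Cd79a and Pax5. For each gene, peaks were taken within 500 bp of any curated start site (the promoter) and over the locus, which ran from 20 kb upstream of the first start site to the gene end. All 9 genes were found in the annotation.

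The lists came from ATAC-seq, in which a transposase cuts and tags DNA where chromatin is open, on nuclei isolated from 1 g of visceral fat. The animals were of the outbred stock CD-1 and 8 weeks old. The 2 control libraries (Control 1 and Control 2) descended from dams that received sesame oil, and the 2 BPA libraries (BPA 1 and BPA 2) from dams injected with bisphenol A at 50 mg/kg, with both treatments running from embryonic day 7.5 to 13.5. By the text of the study, the sampled animals were descendants several generations after these dams and were not treated themselves. Different filial generations are named for the BPA animals by the labels and by the text of the study. The deposited list of BPA 2 carries another replicate number than its label, and neither sex nor batch is labelled. The study used the libraries as an independent check of CD-1 variants, and the comparison of lymphocyte genes between tissue pieces was made here.

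Lymphocytes are the B cells, T cells and natural killer cells of the adaptive and innate immune systems. T cells recognise antigen through a receptor that signals by the CD3 chains and is aided by CD4 or CD8, and B cells recognise it through membrane immunoglobulin that signals by CD79 chains. Visceral fat normally holds resident T and B cells, and in rodents also small lymphoid clusters and lymph nodes lie in or beside it.

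In what follows, library order means Control 1, Control 2, BPA 1, BPA 2. The lists held 82665, 88911, 72375 and 98060 peaks in library order. The median summit pile-up, which is the number of extended reads over the highest point of a peak, was 22, 23, 19 and 38 in the same order, and the lowest pile-up called was 9, 9, 6 and 11. BPA 2 was therefore the library with the highest pile-ups, and a site with fewer reads than these lowest values could not be listed. A promoter is called open below where a peak was listed, and one without a listed peak need not be closed. A rank below is the percentage of peaks of the same library whose q-value was at least as good, so a low rank is a strong peak. A rank places a peak within its own library, and pile-ups were not compared between libraries, since depth differed.

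The sequences of 4 promoters carry the patterns described below. They are the promoters of Ptprc, which had a peak in all 4 libraries, of Tbx21, with a peak in both BPA libraries, of Cd79a, which had a peak in Control 1, and of Cd3e, which had a peak in no library. Each runs from 250 bases before to 50 bases after the start site on the strand of the gene, from RefSeq on GRCm38.p6, the assembly that mm10 names. The reference is not the CD-1 genome. Capitals mark matches on either strand to the 8 motifs listed after the sequences.
Ptprc, first start site, chr1:138175256-138175555, minus strand: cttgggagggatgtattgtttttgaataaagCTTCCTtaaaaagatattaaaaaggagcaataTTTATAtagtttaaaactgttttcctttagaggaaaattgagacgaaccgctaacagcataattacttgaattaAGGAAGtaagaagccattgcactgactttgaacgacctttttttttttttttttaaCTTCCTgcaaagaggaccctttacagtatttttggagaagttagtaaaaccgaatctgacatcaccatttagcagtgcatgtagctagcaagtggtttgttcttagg
Tbx21, chr11:97115282-97115581, minus strand: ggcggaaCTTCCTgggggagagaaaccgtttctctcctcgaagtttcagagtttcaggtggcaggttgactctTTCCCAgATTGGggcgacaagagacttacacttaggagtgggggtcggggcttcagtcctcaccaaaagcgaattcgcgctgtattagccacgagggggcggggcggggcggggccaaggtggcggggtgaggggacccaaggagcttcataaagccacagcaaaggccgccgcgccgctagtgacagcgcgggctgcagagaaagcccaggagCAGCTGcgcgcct
Cd79a, chr7:24897247-24897546, plus strand: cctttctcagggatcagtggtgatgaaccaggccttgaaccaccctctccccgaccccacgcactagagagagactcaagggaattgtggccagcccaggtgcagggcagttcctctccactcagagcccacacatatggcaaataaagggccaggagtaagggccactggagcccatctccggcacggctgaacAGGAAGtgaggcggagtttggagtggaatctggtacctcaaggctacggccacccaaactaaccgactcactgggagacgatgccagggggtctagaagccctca
Cd3e, chr9:45009562-45009861, minus strand: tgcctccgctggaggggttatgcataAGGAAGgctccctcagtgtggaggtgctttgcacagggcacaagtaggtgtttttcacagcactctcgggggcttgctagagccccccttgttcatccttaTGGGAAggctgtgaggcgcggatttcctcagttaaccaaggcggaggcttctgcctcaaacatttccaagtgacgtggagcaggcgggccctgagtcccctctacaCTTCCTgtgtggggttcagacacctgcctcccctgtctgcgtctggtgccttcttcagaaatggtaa

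The motif of ETS factors was searched as CCGGAA or as AGGAAG, and that of RUNX factors as TGTGGT. The GATA motif was AGATAA and the E-box was CAGCTG. The Ikaros motif was TGGGAA. The EBF motif was TCCC followed, after any 2 bases, by GGGA. The other motifs searched were CCAAT, the CCAAT box, and TATAAA, the TATA box. The E-box and EBF motifs read the same on both strands and were counted once, and an ETS and an Ikaros match share the letters GGAA but cannot be the same site. Of the 9 genes, 8 (all but Cd4) had entries in the promoter table, with 10 promoters between them. An ETS match stood in 7 of the 10 promoters, against 45.2% of 32851 promoters of all genes. The 2 Ptprc promoters overlap and share a match, and by gene the count was 6 of 8. At Cd79a the ETS match began 55 bases before the start site, and the summit of the peak in Control 1 lay 61 bp before it. At Cd3e, ETS matches began 224 and 17 bases before the start site and an Ikaros match 123 bases before it. Tbx21 held 4 matches, to ETS, Ikaros, the CCAAT box and the E-box. The E-box stood in 4 of the 10 promoters, against 16.3% of all promoters, and Ikaros in 3, against 25.6%. GATA stood in 1 (11.2% of all promoters), the CCAAT box in 1 (37.4%) and the TATA box in 1 (13.6%), while no member promoter matched RUNX (16.8%) or EBF (0.904%). The matches are letters in the reference sequence and do not show binding.

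Lymphocyte genes were open at the promoter in part, and the same 3 of them had a promoter peak in every library. Ptprc, Ikzf1 and Gata3 had a promoter peak in all 4 libraries, as did 51.2% of all genes. Cd3e, Cd4, Cd8a and Pax5 had none in any library, as did 36.4% of all genes. At Tbx21 a promoter peak was listed for the BPA pair only, a pattern held by 2.65% of all genes. Cd79a had a promoter peak in Control 1 alone, a pattern held by 0.756%. No member had a promoter peak in both controls and neither BPA library, the pattern of 0.455% of all genes. Promoter peaks were thus found at 4, 3, 4 and 4 of the 9 genes in library order. All genes together had them at 56.0%, 55.0%, 57.5% and 61.2% respectively, so the members stood below the whole annotation in each library. The control libraries averaged 3.5 ± 0.707 members (SD, n = 2) and the BPA libraries 4 ± 0 (SD, n = 2). No test between groups was run, since 2 libraries against 2 cannot give a two-sided exact permutation p under 0.333.

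The base composition of a promoter bears on how often it is open, so members were also read against genes of their own class. A promoter was called CpG-rich when, over 500 bp either side of the start site, G+C was at least 50% and the observed over expected CpG ratio at least 0.6. Ikzf1, Tbx21, Gata3 and Pax5 were CpG-rich, and Ptprc, Cd3e, Cd4, Cd8a and Cd79a were CpG-poor. Among all genes with a CpG-rich promoter, 91.1%, 90.2%, 93.6% and 95.9% had a promoter peak in library order. The CpG-rich members had a peak at 2 of 4 genes in each control and 3 of 4 in each BPA library, and Pax5 was the member of this class that lacked a peak throughout. Among all genes with CpG-poor promoters, the shares were 28.5%, 27.3%, 29.3% and 34.0% in library order. The 5 CpG-poor members had 2, 1, 1 and 1 peaks in the same order.

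**Figure D1:**
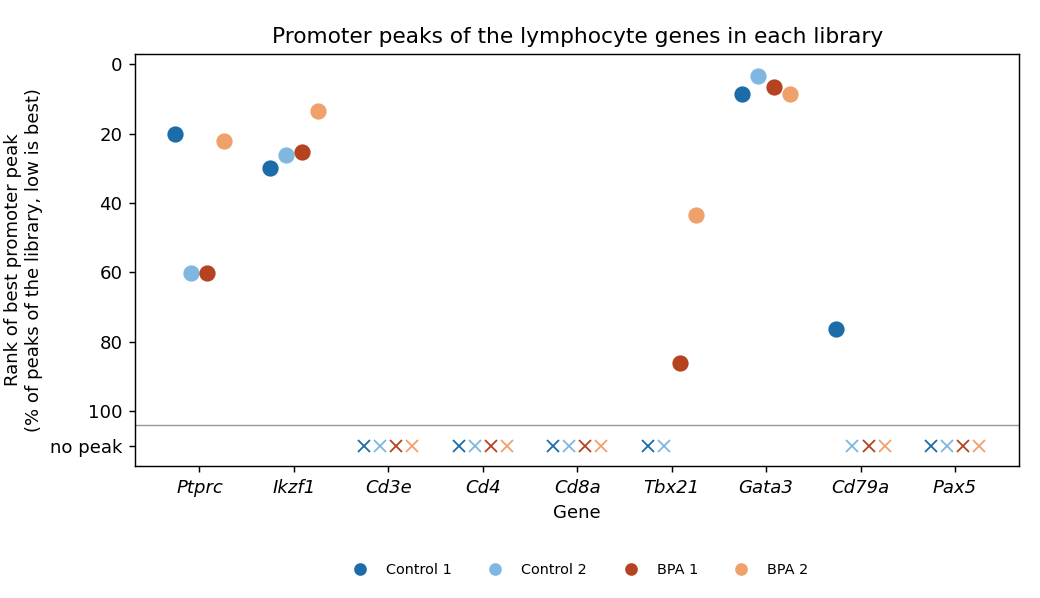
Rank of the best promoter peak (y axis, percent of the peaks of the library, with the strongest at the top) of each of the 9 genes (x axis) in Control 1, Control 2, BPA 1 and BPA 2, with crosses for no peak. Gata3 had ranks from 3.53% to 8.66% in all 4 libraries, Tbx21 had peaks in both BPA libraries, Cd79a in Control 1 alone, and Cd3e, Cd4, Cd8a and Pax5 in none.

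Ptprc encodes CD45, the receptor phosphatase on nearly all nucleated blood cells, and so marks leukocytes in general rather than lymphocytes. Its promoter peak ranked at 20.2%, 60.2%, 60.2% and 22.2% in library order, with summit pile-ups of 40, 19, 13 and 72. A library of each group was thus strong and a library of each group weak, and the groups overlapped. The summits lay 23, 166 and 9 bp downstream of the first start site in Control 1, BPA 1 and BPA 2, within the printed sequence or next to it. In Control 2 the peak also covered both start sites, but its summit lay 1066 bp downstream.

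The Ptprc locus covers 132 kb and held 12, 5, 5 and 9 peaks in library order. A site in intron 1, 38.7 kb into the gene, ranked at 19.5%, 19.5%, 28.6% and 15% and was the most even strong site of the locus over the 4 libraries. A site upstream of the gene, about 16.6 kb before the first start site, ranked at 13.6%, 55.4%, 15.2% and 14%, and Control 2 was again the weak library. Control 1 held 6 regions that no other library had, at 8.91, 9.94, 30.4, 49.9, 51.2 and 73.6 kb into the gene, with ranks from 67.5% to 96.6%. A further site at 48.5 kb was in both BPA libraries and neither control, with ranks of 77.8% and 49.2%.

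Ptprc is also expressed by macrophages, whose markers had higher counts in the BPA libraries. Of 8 macrophage genes, 2, 3, 6 and 7 had a promoter peak in library order. All 8 had CpG-poor promoters, and 28.5%, 27.3%, 29.3% and 34.0% of all genes of that class had a peak. Cd68, Mrc1 and C1qa had one in both BPA libraries and neither control, Cd14 and Adgre1 in all 4 libraries, and Csf1r in none. The best ranks of the list were 9.83% for Cd14 and 20.5% for Adgre1, both in BPA 2, and 24.2% for Cd68 in BPA 1. The part of macrophages in the Ptprc peaks was not tested.

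Ikzf1 encodes Ikaros, a zinc finger factor of lymphoid development. Its first promoter, with 77.1% G+C, ranked at 29.8%, 26.2%, 25.4% and 13.6% in library order, with pile-ups of 48, 47, 37 and 158. These ranks were close in 3 of the 4 libraries, and BPA 2 had the best rank. The second start site, 4252 bp downstream and CpG-poor, had a weak peak at 83.8% in Control 1, 95.9% in BPA 1 and 72.2% in BPA 2 and none in Control 2. By the ratio of pile-up to local background the first promoter ranked lower, at 69.3%, 50.5%, 36.6% and 37.3%, beside local backgrounds of 13.6, 10.2, 4.69 and 25.8 reads.

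The 107 kb locus of Ikzf1 had the most regions of any member, 18, and 12, 8, 8 and 10 peaks in library order. Control 1 again held 6 regions of its own, at 5.86, 9.65, 40.3, 50.3, 64.7 and 73.1 kb into the gene, of which the best ranked at 35.9%. Control 1 lacked a pair of sites that the other libraries shared. The site at 44.4 kb in intron 3 ranked at 70.2% in Control 2 and at 24.7% and 18.4% in the BPA libraries. The site at 77.6 kb in intron 7 ranked at 76.2%, 51.1% and 21.6% in the same order. The peaks of Control 1 inside Ikzf1 thus differed in place from those of the others as well as in number.

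The T cell receptor and co-receptor genes Cd3e, Cd4 and Cd8a had no promoter peak, and their short loci held 2, 3 and 2 regions. Cd3e encodes a CD3 chain of the T cell receptor complex. The nearest peak edge lay 9833, 9962, 22406 and 9040 bp from its start site in library order. A weak site in the last exon, 10.1 kb into the gene, ranked at 83.2% and 75.9% in the controls and 88.8% in BPA 2, and BPA 1, the library with the fewest peaks, had no peak in the locus. The Cd3e promoter printed above was therefore not called open in any of the 4 tissue pieces.

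Cd4 encodes the co-receptor of helper T cells and, at lower level, is also found on some myeloid cells. The strongest site of its 43.5 kb locus lay 15.8 kb upstream, in all 4 libraries at ranks of 8.97%, 18.6%, 6.41% and 4.22%, and it overlapped the end of Lag3, the neighbouring gene for an inhibitory receptor related to CD4. Inside Cd4 the controls had no peak. Both BPA libraries had a peak in intron 3, 13.6 kb into the gene, at ranks of 48.6% and 25.8% with pile-ups of 14 and 49, and another in intron 1, 2.97 kb into the gene, at 81.6% and 78.3% with pile-ups of 9 and 19.

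Cd8a encodes a chain of the co-receptor of cytotoxic T cells. Its pattern by library was the opposite of that inside Cd4, with 2 regions in both controls and no peak in either BPA library over its 25.7 kb locus. The region 11.9 kb upstream ranked at 27.8% in Control 1 and 77.3% in Control 2, with pile-ups of 24 and 15. The region 17.4 kb upstream ranked at 60.4% and 71.3%, with a pile-up of 16 in each. In Control 2 the −log10 q-values of the 2 regions were 3.51 and 4.15, so under a minimum of 5 neither was in both controls. Regions in both controls and neither BPA library made up 3.12% of the member regions, against 4.70% at the loci of all genes. In both BPA libraries the nearest peak edge was over 40 kb from the start site, at 42004 and 41946 bp. Read depth differed between the libraries, so the control pile-ups at Cd8a do not tell whether the BPA lists could have held these sites. This was not tested.

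The sites named here are shown as 101 bases centred on the summit of the library with the best rank, read from the GRCm38 genome on the plus strand, with motif matches in capitals. They are shown because they are the even site of Ptprc, the best-ranked of the members' promoter peaks at Gata3, and the sites that separated the groups at Cd4 and Cd8a.
Ptprc intron 1, chr1:138136554-138136654: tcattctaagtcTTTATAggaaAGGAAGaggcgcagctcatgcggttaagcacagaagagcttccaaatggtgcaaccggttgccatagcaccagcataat
Gata3 upstream, chr2:9879580-9879680: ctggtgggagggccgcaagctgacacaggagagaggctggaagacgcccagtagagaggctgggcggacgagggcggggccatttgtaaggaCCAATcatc
Cd4 intron 3, chr6:124874509-124874609: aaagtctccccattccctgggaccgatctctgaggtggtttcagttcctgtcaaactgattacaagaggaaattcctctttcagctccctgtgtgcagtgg
Cd8a upstream, chr6:71361442-71361542: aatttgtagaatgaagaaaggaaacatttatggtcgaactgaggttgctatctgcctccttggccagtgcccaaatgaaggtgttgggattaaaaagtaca
The Ptprc site held an ETS and a TATA match, the Gata3 site held a CCAAT box, and the sites at Cd4 and Cd8a held none of the 8 motifs. No match says only that these letters are not in the window.

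Tbx21 and Gata3 encode T-bet and GATA3, the factors that direct helper T cells to the type 1 and the type 2 programme. GATA3 is also made in preadipocytes and other cells outside the lymphoid lineage, and T-bet also in natural killer cells and some B cells. The Tbx21 promoter had a peak at a rank of 86.3% in BPA 1 and 43.5% in BPA 2, with pile-ups of 10 and 39, and none in either control, where the nearest peak edge lay 11570 and 11721 bp away. The BPA 1 peak was among the weakest of its list, with a −log10 q-value of 3.67 against 17.6 in BPA 2. Under a −log10 q-value minimum of 5 it was lost, and the promoter had a peak in BPA 2 alone.

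Away from the promoter, a site 11.9 kb upstream of Tbx21 was in all 4 libraries, at ranks of 30.7%, 69.5%, 19.4% and 13.2%. A site in the last exon, 16.3 kb into the gene, ranked at 44% in Control 2, 26% in BPA 1 and 23% in BPA 2 and was missing in Control 1. The upstream site was thus held by all 4 libraries and the site in the last exon by 3.

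Gata3 had the best-ranked promoter peak of the members in every library, at 8.52%, 3.53%, 6.45% and 8.66%, with pile-ups of 73, 86, 102 and 239. The control and BPA values overlapped. The summits lay 1033, 1030, 979 and 906 bp upstream of the start site, so the point of highest accessibility was upstream of the promoter as defined here. The peaks covered the start site in 3 libraries, and in Control 2 the peak edge lay 324 bp from it. With the summit required to lie in the promoter, Gata3 no longer counted in any library. A site 11 kb upstream, at the promoter of the noncoding gene 9230102O04Rik, ranked at 63.2% in Control 1, 86.9% in BPA 1 and 49.3% in BPA 2. A site in intron 4, 11 kb into the gene, ranked at 78.1% in Control 2 and 78.3% in BPA 2. Neither of these weaker sites followed the treatment.

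Of the B cell genes, Cd79a differed between the 2 control libraries at its promoter, and Pax5 had no peak there in any of the 4 libraries. Cd79a encodes a signalling chain of the B cell receptor. Its promoter had a peak in Control 1, at a rank of 76.4% with a pile-up of 15 over a local background of 3.97 and a −log10 q-value of 3.34. In Control 2, BPA 1 and BPA 2 the nearest peak edges lay 5083, 5055 and 4969 bp away. Under a −log10 q-value minimum of 5 the peak was lost. The strongest site in its locus, 13.2 kb upstream with ranks from 0.229% to 2.09% in the 4 libraries, was the promoter of Rps19, a ribosomal protein gene, and so does not mark B cells.

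Pax5 encodes the factor that commits cells to the B lineage. Its CpG-rich promoter had no peak, and the nearest peak edges lay 5257, 5972, 2394 and 2028 bp from the start site. Its 206 kb locus held 8, 5, 5 and 7 peaks in library order. A site in intron 1, 6.25 kb into the gene, was in all 4 libraries at ranks of 38.9%, 51.6%, 32.5% and 46.7%. A site 2.27 kb upstream was in both BPA libraries, at 95.7% and 92.1%, among the weakest of their lists. Control 1 held 3 regions of its own, at 5.49, 37.8 and 39.3 kb, with ranks from 76.5% to 92.5%. Deeper sites varied in how many libraries held them. The site 174 kb into the gene, in intron 9, was in all 4 libraries at 70.3%, 46.2%, 95.7% and 92.5%. The sites at 65.3 kb in intron 6 and 146 kb in intron 8 were in both controls and BPA 2, with ranks from 33.4% to 66.7%, and not in BPA 1. The site at 152 kb was in Control 1 and BPA 2, at 81% and 74.9%, and that at 133 kb in Control 2 alone, at 78.6%. BPA 1 had the single region of the 9 loci that was in BPA 1 alone, at 84.2 kb in intron 6 of Pax5, at 52.5%.

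**Figure D2:**
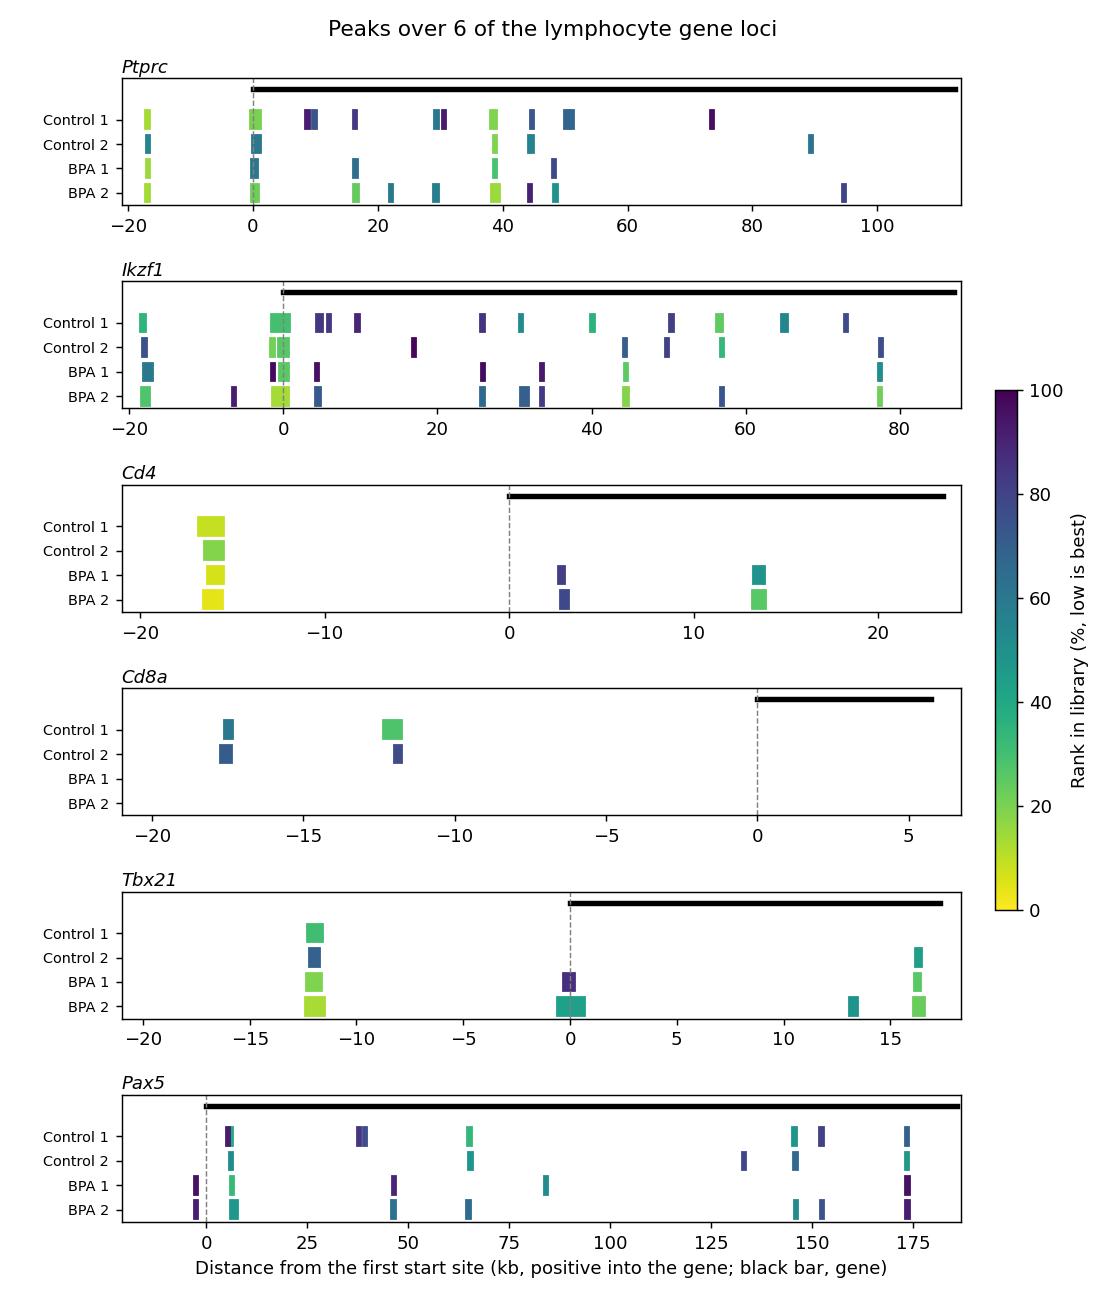
Peaks of each library (rows) over the loci of Ptprc, Ikzf1, Cd4, Cd8a, Tbx21 and Pax5 by distance from the first start site (x axis, kb), coloured by rank within the library, with narrow peaks widened so that they can be seen. The peaks inside Cd4 are in the BPA rows, those upstream of Cd8a in the control rows, and Control 1 has 6 regions of its own at Ptprc and 6 at Ikzf1.

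Over the 649 kb of the 9 loci, there were 42, 29, 28 and 40 peaks in library order. This was 6.47, 4.47, 4.32 and 6.17 peaks per 100 kb, against 4.68, 5.04, 4.5 and 5.84 over the loci of all genes. Control 1 was thus above the whole annotation at these loci while Control 2 was below it. Controls averaged 5.47 ± 1.42 peaks per 100 kb (SD, n = 2) and BPA libraries 5.24 ± 1.31 (SD, n = 2), so the groups differed by less than their own libraries did. Medians over the members were closer to those of all genes, at 4.82, 5.36, 4.82 and 6.9 against 4.69, 4.87, 4.52 and 6.14. In Control 1 the members were spread widely: 91.9% of all genes had fewer peaks per 100 kb than Cd79a, whose locus includes the Rps19 promoter, 89.1% fewer than Ikzf1 and 80.1% fewer than Ptprc, but only 28.1% fewer than Cd4, 30.8% fewer than Tbx21, 35.3% fewer than Cd3e and 41.3% fewer than Pax5. A peak anywhere in the locus was found for 9, 9, 7 and 8 of the 9 members, against 78.7%, 79.3%, 77.1% and 80.4% of all genes.

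Peaks of the 4 libraries that overlapped by at least 1 bp were merged into 64 regions over the member loci. Of these, 12 (18.8%) were in all 4 libraries, against 29.8% of the regions at the loci of all genes. In both BPA libraries and neither control there were 7 (10.9%), against 9.73%, and in both controls and neither BPA library 2 (3.12%), against 4.70%. The split by treatment at these loci was therefore near that of the whole annotation.

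Regions of a single library made up 27 (42.2%), against 35.7% of all. Of them, 16 were in Control 1 alone, which was 25% of the member regions against 9.47% at all loci. Control 2 alone held 5 (7.81%), against 10.1%, BPA 1 alone 1 (1.56%), against 2.29%, and BPA 2 alone 5 (7.81%), against 13.9%. Control 1 was the library in which the member share lay above the share at all loci. Most of its regions were weak peaks: under a −log10 q-value minimum of 5, the density over the member loci was 2.77, 2.47, 2.62 and 5.24 per 100 kb in library order, so that Control 1 no longer stood apart from Control 2.

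A wider set of 42 lymphocyte genes in 6 lists was then read in the same way. These lists were chosen with earlier results of these data known, so they are not an independent check of the 9 genes. A promoter peak was found at 18, 11, 14 and 20 of the 42 in library order, which was 42.9%, 26.2%, 33.3% and 47.6%, against 56.0%, 55.0%, 57.5% and 61.2% of all genes. Controls averaged 14.5 ± 4.95 genes (SD, n = 2) and BPA libraries 17 ± 4.24 (SD, n = 2), again less apart than the libraries within a group. Of the 42, 36 had CpG-poor promoters, and 16, 8, 9 and 14 of these had a peak, against 28.5%, 27.3%, 29.3% and 34.0% of all genes of that class. The order of the libraries depended on the lists used. With equal numbers of peaks the 42 genes gave 18, 8, 14 and 15, so that BPA 2, the longest list, was near BPA 1, and with the best 20000 peaks they gave 2, 0, 3 and 5. Control 2 had the lowest count in each of these.

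Among the genes of the B cell receptor and its co-receptors, 5, 2, 2 and 3 of 8 had promoter peaks in library order. All 8 had CpG-poor promoters, a class in which 28.5%, 27.3%, 29.3% and 34.0% of all genes had a peak. Ms4a1, which encodes the B cell surface protein CD20, had a peak in Control 1 alone, at a rank of 25.1% with a pile-up of 30. Fcer2a, which encodes CD23, the low-affinity IgE receptor of B cells, also had it in Control 1 alone, at 26.2% with a pile-up of 27. These were stronger peaks than that of Cd79a, and both passed a −log10 q-value minimum of 5. Cd22, an inhibitory co-receptor, had a peak in Control 1 and BPA 2, at 70.8% and 69.7%. Blnk, an adaptor of the B cell receptor also used in myeloid cells, and Cr2, a complement receptor, had peaks in all 4 libraries, with best ranks of 17% in BPA 2 and 29.4% in Control 1. Cd79b and Blk, both parts of B cell receptor signalling, had none in any library.

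The loci of this list showed the same library. Of its 39 merged regions, 13 (33.3%) were in Control 1 alone, 0 in Control 2 alone, 0 in BPA 1 alone and 5 (12.8%) in BPA 2 alone. The shares at the loci of all genes were 9.47%, 10.1%, 2.29% and 13.9% in library order. Its loci held 7.41, 3.29, 4.39 and 6.86 peaks per 100 kb in library order, and the medians over its genes were 8.22, 2.99, 4.05 and 8.08. Over all genes the densities were 4.68, 5.04, 4.5 and 5.84 and the medians 4.69, 4.87, 4.52 and 6.14. Control 1 and BPA 2 were above all genes in both measures, and Control 2 and BPA 1 were below. Among B cell factors, Pou2af1, a coactivator of octamer factors in B cells, had a promoter peak in Control 1 alone at 70.4%. Ebf1, a B lineage factor that is also active in adipocytes, had a peak in both BPA libraries and neither control, at 61.7% and 11.4%. Spib and Bach2, further B cell factors, had none.

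Among 11 genes of T cell receptor signalling, all with CpG-poor promoters, peaks were found at 4, 1, 1 and 6 in library order. These were 36.4%, 9.09%, 9.09% and 54.5%, against 28.5%, 27.3%, 29.3% and 34.0% of all genes of that class. Lck, the kinase that starts the signal, had a peak in Control 1 alone, at 58.2%. Cd2, an adhesion receptor, Cd5, a scavenger-type receptor that dampens the signal, and Zap70, the kinase that follows Lck, had peaks in Control 1 and BPA 2. Their ranks were 57.6% and 82.8% for Cd2, 60% and 75% for Cd5, and 64.7% and 83% for Zap70. The adaptor Lat had a peak in BPA 2 alone, at 57.6%. Cd28, the main costimulatory receptor, had peaks in Control 2, BPA 1 and BPA 2, at 72.9%, 60.9% and 30.9%. Cd3d, Cd3g, Cd247 and Cd6 had none, so no gene for a CD3 chain, Cd3e included, had a promoter peak in any tissue piece.

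In the 36 CpG-poor genes of the wider lists, 5 promoters were open in Control 1 alone (Lck, Ms4a1, Fcer2a, Pou2af1 and Vav1, the last an exchange factor of blood cells, at 55.5%). None was open in Control 2 alone or BPA 1 alone, and 2 were in BPA 2 alone. Among all genes with CpG-poor promoters, 1.28% were open in Control 1 alone, and the shares for Control 2, BPA 1 and BPA 2 alone were 1.13%, 0.313% and 3.01%. With the best peaks of each library kept in equal numbers, Cd2, Cd5 and Zap70 joined Control 1's 5 genes, and with a promoter of 1000 bp either side Lck left them. Under the −log10 q-value minimum of 5, Pou2af1 left them. Over all 42 genes, the alternatives gave 2 to 8 genes open in Control 1 alone, with the 2 under the best 20000 peaks.

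**Figure D3:**
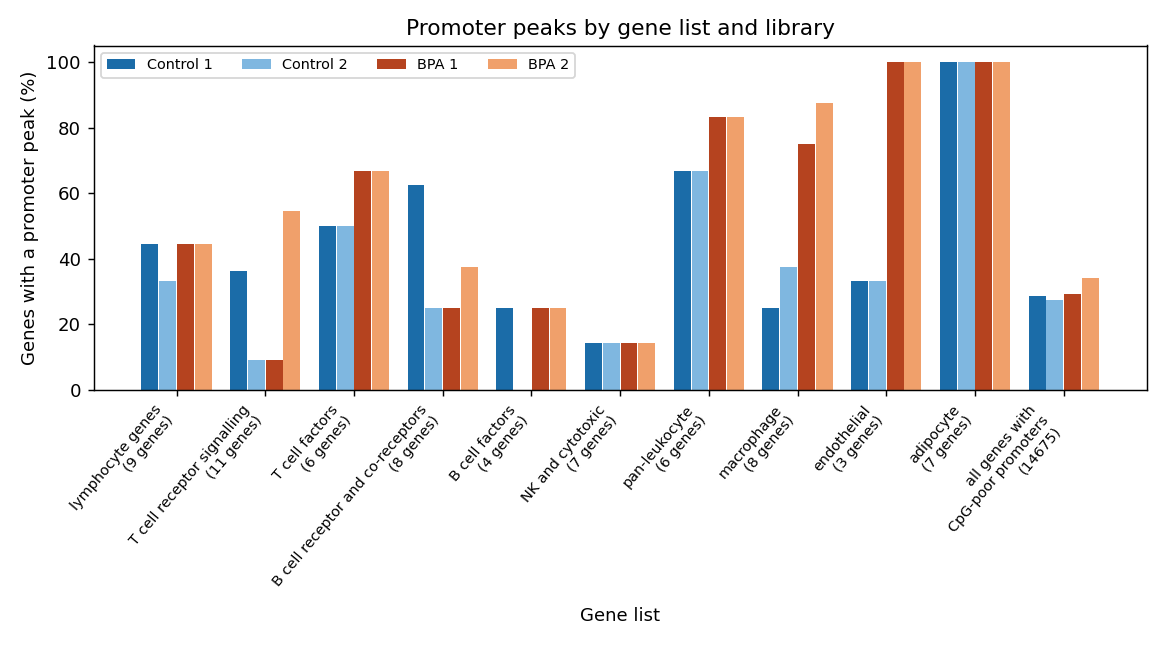
Share of the genes of each list with a promoter peak (y axis, percent) in Control 1, Control 2, BPA 1 and BPA 2 (bars), beside all 14675 genes with CpG-poor promoters. The B cell receptor list reaches 62.5% in Control 1 against 25% to 37.5% in the other libraries, and the T cell receptor list 36.4% in Control 1 and 54.5% in BPA 2 against 9.09% in Control 2 and BPA 1.

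The remaining lists differed less between libraries. Among all genes with CpG-poor promoters, 28.5%, 27.3%, 29.3% and 34.0% had a peak in library order. Among those with a CpG-rich promoter, the shares were 91.1%, 90.2%, 93.6% and 95.9%. Of 6 T cell factors (4 CpG-rich), 3, 3, 4 and 4 had a promoter peak in library order. Tcf7 and Lef1, the HMG-box factors of T cell development, had it in all 4, with best ranks of 24.9% in BPA 2 and 36.4% in Control 1. Runx3, a factor of cytotoxic T cells, had a peak in both BPA libraries and neither control, at 90% and 55.9%. Of 7 natural killer and cytotoxic genes (all CpG-poor), Eomes, a T-box factor, had a peak in all 4 libraries. It ranked at 70.7%, 99.7%, 97.1% and 45.1% in library order, so the peaks in Control 2 and BPA 1 were among the weakest of their lists. The other 6, among them Ncr1, Prf1 and Gzmb, had none. Of 6 leukocyte-wide genes (5 CpG-poor), 4, 4, 5 and 5 had a peak. Coro1a, an actin regulator, Cd53, a tetraspanin, and Spi1, which encodes PU.1, were open in all 4 libraries, with best ranks of 13.6%, 16.2% and 17.1%. Laptm5, a lysosomal protein of blood cells, was open in both BPA libraries and neither control, at 42.9% and 19.4%.

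Markers of the other cells of the tissue were read for the same libraries. In library order, 28.5%, 27.3%, 29.3% and 34.0% of all genes with CpG-poor promoters had a peak. For genes with a CpG-rich promoter the shares were 91.1%, 90.2%, 93.6% and 95.9%. All 7 adipocyte genes (5 CpG-poor) had a promoter peak in all 4 libraries, with best ranks of 4.42% for Cebpa, 7.16% for Pparg and 13.8% for Fabp4. Some of their peaks were weak: in library order, Plin1 ranked at 74.8%, 23.1%, 68.9% and 89%, and Lep at 84.2%, 51.2%, 76.9% and 57.2%. Of 3 endothelial genes (all CpG-poor), 1 had a peak in each control and 3 in each BPA library. Pecam1 and Cdh5 were open in both BPA libraries and neither control, while Tek was open in all 4, with a best rank of 11.7%. Of 3 mesothelial genes (2 CpG-poor), 2, 2, 2 and 1 had a peak, with Wt1 in all 4 and Upk3b in 3, at best ranks of 20.5% and 34.2%. The 3 hepatocyte genes, which this tissue should not use, had none. The counts of open macrophage and endothelial promoters were thus higher in both BPA libraries than in either control, while that of the B cell receptor list was highest in Control 1, and the part of any of these cells in the member peaks was not tested.

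**Figure D4:**
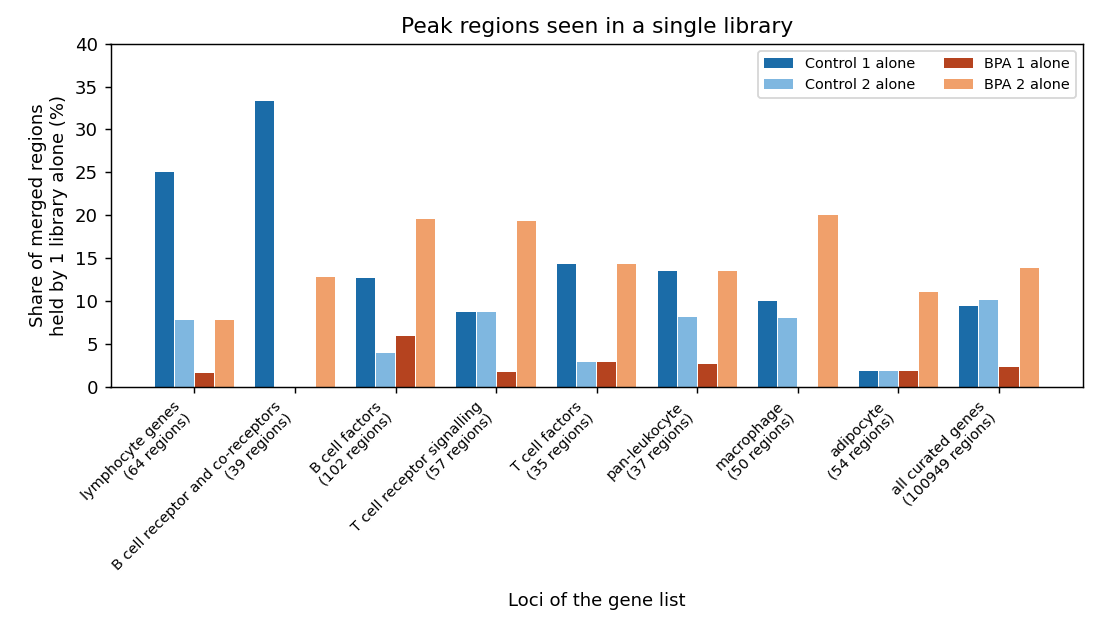
Share of the merged regions at the loci of each gene list that were in 1 library alone (y axis, percent), by library (bars). Control 1 alone held 25% of the regions at the 9 lymphocyte genes and 33.3% at the B cell receptor list, against 9.47% at the loci of all genes.

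Read by tissue piece, Ptprc, Blnk and Cr2 were open in all 4. Control 1 also had the promoters of Cd79a, Ms4a1, Fcer2a, Cd22, Lck, Cd2, Cd5 and Zap70. BPA 2 also had those of Cd22, Cd2, Cd5, Zap70, Cd28, Lat and Tbx21. Control 2 and BPA 1 had Cd28 and no other gene of the receptor lists, and BPA 1 also had the weak Tbx21 peak. In bulk tissue, fewer lymphocytes and less open chromatin per lymphocyte cannot be told apart, and a promoter without a peak does not show that the cells were absent. The presence pattern of a member was shared with many other genes: 13403 others had a peak in all 4 libraries like Ptprc, Ikzf1 and Gata3, 9520 in none, 693 in both BPA libraries alone like Tbx21, and 197 in Control 1 alone like Cd79a.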

How the data were processed

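ATAC-seq peak lists of 4 CD-1 adipose libraries, 2 control and 2 BPA, were analysed. As described by the study, the authors trimmed reads with trim_galore, aligned them to mm10 with bowtie2 (fragments up to 2000 bp), kept unique reads, removed duplicates and ran MACS2 on each library without pooling. The submitters' processing notes give Bowtie2 2.3.5.1 and MACS2 2.2.7.1. Other options are not given in the sources used here. The deposited score is 10 times the −log10 q-value, the deposited ratio is the fold of the summit pile-up over the local background, and the peak caller's p-value and q-value were deposited as −log10 p and −log10 q. The summit offset is the last deposited column. The lists hold no read totals, so the whole-number pile-up was solved from fold and p-value and gave back the p-value of 100% of peaks to within 0.0001 of its size. Such counts of reads carry counting error that is not given here.

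Start sites were those of 45756 curated RefSeq transcripts. Ranks used the q-value. Computation used Python 3.11.15, numpy 2.4.6, pandas 2.3.3, scipy 1.17.1 and matplotlib 3.10.9, and the counting functions were tested on simulated data. The members and lists were chosen with earlier results of these data known. Named genes were all members, the genes of the T and B cell receptor lists, genes open in both libraries of a group and neither of the other, and up to 3 best-ranked genes a list, of which some are counted in their lists but not reported here by name. Named regions were the best per member and up to 3 per direction that separated the groups, while other regions and genes were named after their values were seen. The labels do not say whether libraries came from separate animals. Alternatives were a promoter of 1000 bp either side, a −log10 q-value of at least 5, equal numbers of peaks (72375), the best 20000 peaks, the summit in place of the peak, all RefSeq transcripts, other locus windows, regions by 50% reciprocal overlap, ranks by fold and leaving out each library.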

Additional observations from a re-analysis of the deposited data

How the results depend on the processing

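With the best 20000 peaks of each library, members with a promoter peak numbered 2, 1, 2 and 2 in Control 1, Control 2, BPA 1 and BPA 2, and wider lymphocyte genes 2, 0, 3 and 5. With the summit required in the promoter, Control 2 had 1 member. A −log10 q-value minimum of 5 left Control 2 with 6 wider genes and gave 2.77, 2.47 and 2.62 peaks per 100 kb in Control 1, Control 2 and BPA 1. It also left 4 regions in both BPA libraries alone and 0 in both controls alone, where equal numbers of peaks gave 4 and 4. Regions in a single library numbered 51 under 50% overlap of both lengths. With each library left out in turn, regions in both or the remaining BPA libraries alone ranged from 8 to 12, those in controls alone from 2 to 18, those in a single library from 16 to 33, and those in all remaining libraries from 12 to 17. The member count per group ranged from 3 to 4 in controls and stayed at 4 in BPA. Of 100 recomputed counts and densities, 76 stayed within 1.5 times the first value. Ranks by fold moved by more than the spread between replicates for 8 of the 14 promoter peaks that both libraries of a group held. The cause was not tested for any of these. No paired analysis was made, since the labels pair no control library with a BPA library and no test was run. Depth limits all absences: pile-ups under 9, 9, 6 and 11 were never listed.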
